A study of Mus musculus with 2 samples.

Results

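Synaptic adhesion molecules are membrane proteins that span the cleft between neurons or join axons to their partners. The genes described here are those of the deposited table whose symbol begins like a neurexin, neuroligin, contactin, contactin-associated protein, Lrrtm, Lrrc4, Slitrk, Cadm, Flrt or latrophilin (Adgrl) gene, together with the receptor phosphatases Ptprd, Ptprs and Ptprf. The rule uses symbols and no measured value, although it was written with earlier results of these data known. The rule found 53 of the 18510 genes listed. Of these, 45 belong to the 11 adhesion families, and 8 (Lrrc40, Lrrc41, Lrrc42, Lrrc43, Lrrc45, Lrrc46, Lrrc47 and Lrrc49) share only the first letters of the Lrrc4 symbol and are given apart. Adgrl4 is not analysed here.

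Neurexins sit on the presynaptic side and bind neuroligins and Lrrtm proteins across the cleft, while the LAR-type phosphatases (Ptprd, Ptprs and Ptprf) bind Slitrk proteins and other postsynaptic partners. Latrophilins are adhesion receptors of the G protein-coupled class that bind Flrt proteins and teneurins. Contactins are held to the membrane by a lipid anchor, and with their transmembrane partners of the Cntnap family they organise axonal domains. In the developing brain these families also act in axon growth, cell migration and the choice of synaptic partners.

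The 2 libraries were made from neural stem cells of the embryonic brain (CD-1 mice, embryonic day 12) that had spent 5 days in a medium for proliferation. Messenger RNA was enriched with oligo(dT). For 1 library the lentivirus carried a control plasmid and for the other an H3.3 knockdown plasmid, so both groups share strain, stage, culture and infection. The sequence of the knockdown construct was not used here. Histone H3.3 is made and deposited throughout the cell cycle, unlike the H3 forms made for DNA replication. The comparison asks how transcript levels differ after its knockdown. Each group held 1 library, so differences have no replicate check and p-values were not computed.

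The control library held 9184779 counts and the knockdown library 8702855, and levels are given relative to these totals in CPM (counts per 1000000 counts). Where a pair of values is given, the control comes first. The H3.3 genes were lower in the knockdown library. H3f3b had 821 and 447 CPM, a ratio of 0.544 (0.523 to 0.566), and H3f3a 209 and 135 CPM, a ratio of 0.646 (0.601 to 0.695), so neither reached a 2-fold difference. Both libraries held the stem cell markers Nes (544 and 462 CPM) and Sox2 (522 and 439 CPM). They also held the neuronal tubulin Tubb3 (1024 and 979 CPM), so the labelled stem cell cultures contained neuronal transcripts. Of 12 neuron markers, 9 lay above the control and 3 below it beyond counting error, and their levels summed to 5887 and 7835 CPM. Among all tested genes, as defined below, 22.9% lay above and 27.0% below. By the 2-fold rule defined below, Snap25, Gap43, Nefl and Nefm rose (2.45-, 2.46-, 2.59- and 2.19-fold). The 3 neuron markers below were Syt1 (0.588 of the control, 0.545 to 0.635), Elavl3 (0.861) and Tubb3 (0.956). Of 12 stem cell and radial glia markers, 1 lay above and 8 below (5237 and 5051 CPM summed). Among them Sox1 and Nr2e1 fell to 0.461 and 0.476 of the control. All 10 proliferation markers lay below (1882 and 920 CPM). None of the markers in these 3 lists was at 0. Their part in the values below was not tested, and in bulk RNA fewer cells of a type cannot be told apart from less RNA per cell.

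Most adhesion genes had somewhat higher levels in the knockdown library. Of the 53 genes, 52 reached the minimum mean of 1 CPM and are called tested, and Lrrc43, with 3 and 1 counts, did not. A gene is said to have risen or fallen when its ratio was at least 2-fold and its 95% counting interval excluded 1. By this rule 1 of 52 rose, namely Cntn4, and none fell, against 3.82% and 2.54% of all 13989 tested genes (6.36% in either direction). Smaller differences were more frequent. The counting interval lay above 1 for 28 of the 52, a call that 22.9% of all tested genes met, and below 1 for 5, a call that 27.0% met. With a 1.5-fold ratio as the minimum, 9 were higher and 2 lower, against 9.01% and 8.20% of all tested genes. The median log2 ratio, knockdown over control, was 0.30 over the 52 genes and 0.33 over the 45 adhesion genes, beside -0.03 over all tested genes. Of the 45, 37 had a log2 ratio above 0 (82.2%), compared with 47.1% of all tested genes. Together the 45 genes made up 0.576% of the control counts and 0.663% of the knockdown counts. All intervals are 95% intervals and cover counting error only. Exons of 16 of the 45 genes overlap those of another annotated gene, among them those of all latrophilins, Nrxn2, Nrxn3, Nlgn1, Nlgn3, Ptprd, Cadm2, Cadm3, Cntn5, Cntnap1, Cntnap4, Lrrtm2 and Lrrtm4, and reads there could have been counted for either gene or for none.

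**Figure D1:**
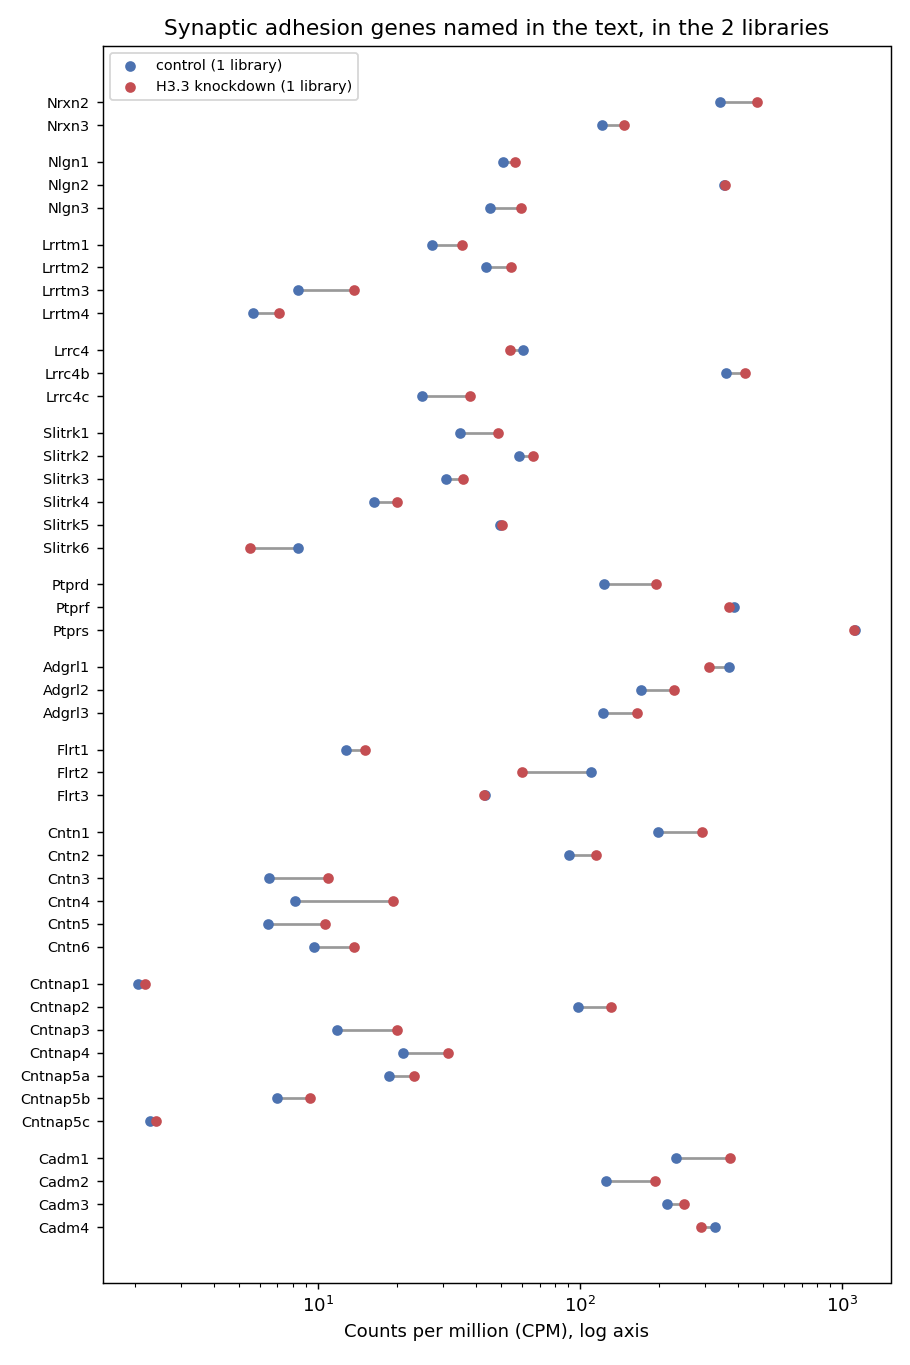
Level of each adhesion gene named in the text in CPM (log axis) in the control library (blue) and the H3.3 knockdown library (red), ordered by family. Most red points lie to the right of the blue points, with Flrt2, Slitrk6, Adgrl1 and Cadm4 among those that lie to the left.

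Levels were compared between genes only per length of exon, as RPKM (CPM per kilobase of exon). Shares of family counts, given below, were not divided by length unless stated and serve to compare the 2 libraries. In the control the highest were Cadm4 at 151 RPKM, Lrrc4b at 123 RPKM, Ptprs at 74.3 RPKM and Nlgn2 at 61.3 RPKM. These 4 also led in the knockdown library, where Lrrc4b had 145 RPKM and Cadm4 134 RPKM. At the other end stood Cntnap1 with 0.352 and 0.372 RPKM and Cntnap5c with 0.582 and 0.614 RPKM. Among contactins, only Cntn1 exceeded 10 RPKM in the control (21.0 RPKM), with Cntn2 just under it at 9.74 RPKM. With the longest transcript as the length, Cntn2 had 12.4 RPKM in the control.

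Of the neurexins, Nrxn2 and Nrxn3 are described. Nrxn2, on chromosome 19 from 6418731 to 6544169 on the plus strand, had 3128 control counts and 4116 knockdown counts (341 and 473 CPM). The knockdown library was the higher one, at 1.39 times the control level (interval 1.33 to 1.46). Nrxn3 was also above the control beyond counting error, with 1116 and 1274 counts and 1.20 times the control (1.11 to 1.31). Gene counts do not separate the long alpha from the short beta transcripts of these genes.

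The neuroligins, which receive neurexins on the postsynaptic side, summed to 451 and 471 CPM, a ratio of 1.05 (1.00 to 1.09). Nlgn2, the neuroligin of inhibitory synapses, had 3258 control counts and 3096 knockdown counts, and its ratio was 1.00 (0.954 to 1.05). The most abundant neuroligin thus had nearly equal levels in both libraries. Nlgn3, with 415 and 516 counts, was higher after knockdown at 1.31 times the control (1.15 to 1.497). Nlgn1, a neuroligin of excitatory synapses, had 468 and 489 counts, and its interval (0.969 to 1.25) included 1.

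The Lrrtm proteins are a second set of postsynaptic neurexin ligands, and all 4 genes had ratios above 1. Lrrtm2 went from 403 to 476 counts, 1.25 times the control (1.09 to 1.43), and Lrrtm1 from 249 to 309 counts, 1.31 times (1.10 to 1.55). Lrrtm3 had 77 and 119 counts, 1.63 times the control (1.21 to 2.20), and was among the 9 genes past 1.5-fold. Lrrtm4 had only 52 and 62 counts, and its interval (0.856 to 1.86) included 1. Lrrtm1, Lrrtm2 and Lrrtm3 lie within catenin genes on the opposite strand. Ctnna2, which contains Lrrtm1, had 1.03 times the control level (0.972 to 1.09), and Ctnna1, which contains Lrrtm2 and shares 95 exon bases with it, had 0.755 times (0.710 to 0.802). Ctnna3, which contains Lrrtm3, had 2 and 3 counts.

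The Lrrc4 family encodes netrin-G ligands and the LAR-binding protein Lrrc4b. Lrrc4b, an abundant member, had 3306 control counts and 3693 knockdown counts, 1.18 times the control (1.12 to 1.24). Lrrc4c, which codes for a ligand of netrin-G1, had 230 and 331 counts, 1.52 times the control (1.28 to 1.81). The knockdown library was higher for both. Lrrc4 itself had 554 and 470 counts with an interval from 0.790 to 1.01, and lies inside Snd1, which had 0.706 times its control level (0.645 to 0.772).

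The Slitrk genes encode postsynaptic partners of the LAR-type phosphatases. Slitrk1 was higher after knockdown, with 320 control counts and 422 knockdown counts (1.39 times the control, 1.20 to 1.61). Slitrk6 went the other way, with 77 and 48 counts, 0.658 of the control (0.449 to 0.956). Slitrk2 had 539 and 576 counts and an interval that began at 1.00. For Slitrk3, Slitrk4 and Slitrk5 the interval included 1, with ratios of 1.16, 1.22 and 1.01. The summed family ratio was 1.14 (1.07 to 1.21).

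The LAR-type phosphatases are the presynaptic receptors of this group, and 1 of the 3 genes differed beyond counting error. Ptprd, on chromosome 4 from 75941238 to 78211961 on the minus strand, had 1133 control counts and 1690 knockdown counts (123 and 194 CPM). The knockdown level was the higher one, 1.57 times the control (1.46 to 1.70). Ptprs, the gene with most counts of all 53, had 10232 and 9656 counts, a ratio of 0.996 (0.969 to 1.02). Ptprf had 3554 and 3210 counts, a ratio of 0.953 with an interval of 0.909 to 1.00. Of the counts of the 3 genes, Ptprd made up 7.59% in the control (Wilson interval 7.18% to 8.03%) and 11.6% in the knockdown library (11.1% to 12.1%). Ptprs made up 68.6% and 66.3%.

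**Figure D2:**
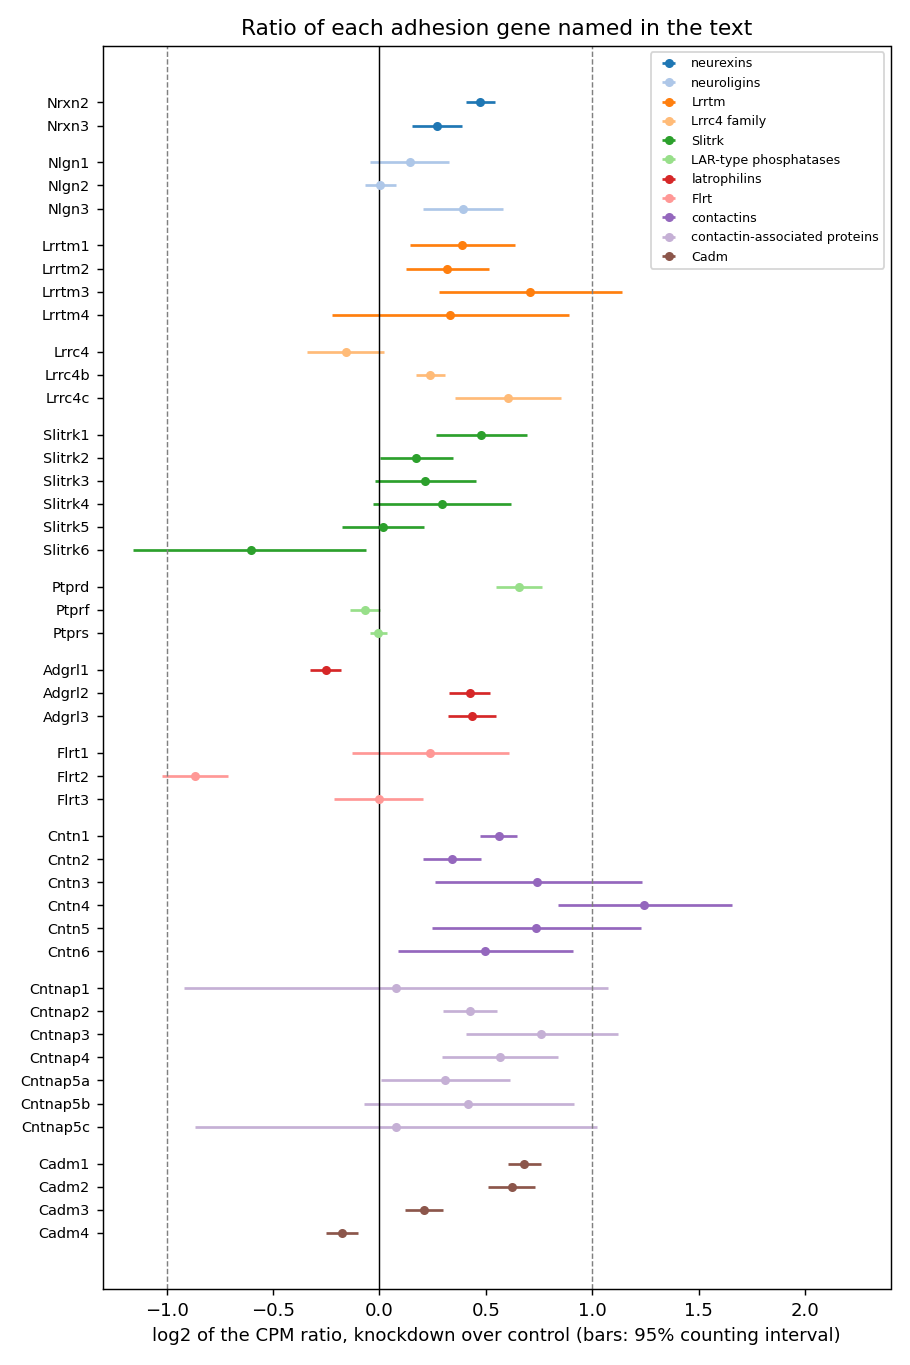
Log2 of the CPM ratio (knockdown over control) of each adhesion gene named in the text, coloured by family, with 95% counting intervals as bars and dashed lines at a 2-fold ratio either way. Cntn4 is the only point beyond the right dashed line, and Flrt2 and Slitrk6 lie farthest to the left.

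The latrophilins, postsynaptic and axonal receptors of Flrt proteins and teneurins, divided. Adgrl1 had 3386 control counts and 2694 knockdown counts (369 and 310 CPM). It was lower after knockdown, at 0.840 of the control (0.798 to 0.884). Adgrl2 had 1562 and 1985 counts, 1.34 times the control (1.25 to 1.43), and Adgrl3 had 1121 and 1436 counts, 1.35 times (1.25 to 1.46). Both were higher after knockdown. The levels of the family summed to 661 and 703 CPM, a ratio of 1.06 with an interval just above 1 (1.03 to 1.10). The share of Adgrl1 in the latrophilin counts was 55.8% in the control (54.5% to 57.0%) and 44.1% in the knockdown library (42.8% to 45.3%).

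The Flrt proteins bind latrophilins and Unc5 receptors, and Flrt2 had the lowest ratio of the 45 genes. Flrt2, on chromosome 12 from 95692226 to 95785215 on the plus strand, had 1007 control counts and 523 knockdown counts (110 and 60.1 CPM). The knockdown library was lower, at 0.548 of the control (0.492 to 0.610), which missed the 2-fold size. Flrt3 had 397 and 375 counts with a ratio of 0.997 (0.863 to 1.15), and Flrt1 118 and 132 counts with a ratio of 1.18 (0.914 to 1.53). Over the Flrt family the levels summed to 166 and 118 CPM, a ratio of 0.714 (0.659 to 0.7735). Flrt2 made up 66.2% of Flrt counts in the control (63.7% to 68.5%) and 50.8% in the knockdown library (47.7% to 53.8%). Flrt1 and Flrt3 lie inside Macrod1 and Macrod2 on the opposite strand, whose ratios were 0.751 (0.576 to 0.976) and 1.45 (1.22 to 1.72).

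Some partners of these receptors were looked at after their values were seen. The teneurins, ligands of latrophilins, also divided. Tenm1, Tenm2 and Tenm4 had 1.43, 1.74 and 1.66 times the control level, and Tenm3 had 0.779 (0.727 to 0.834). The Unc5 receptors, which bind Flrt2 and Flrt3, had ratios of 1.95 for Unc5a (210 and 389 counts, 1.65 to 2.32), 1.73 for Unc5b, 1.16 for Unc5c and 1.73 for Unc5d. The interval of Unc5c (0.992 to 1.36) was the only one of these 4 to include 1.

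**Figure D3:**
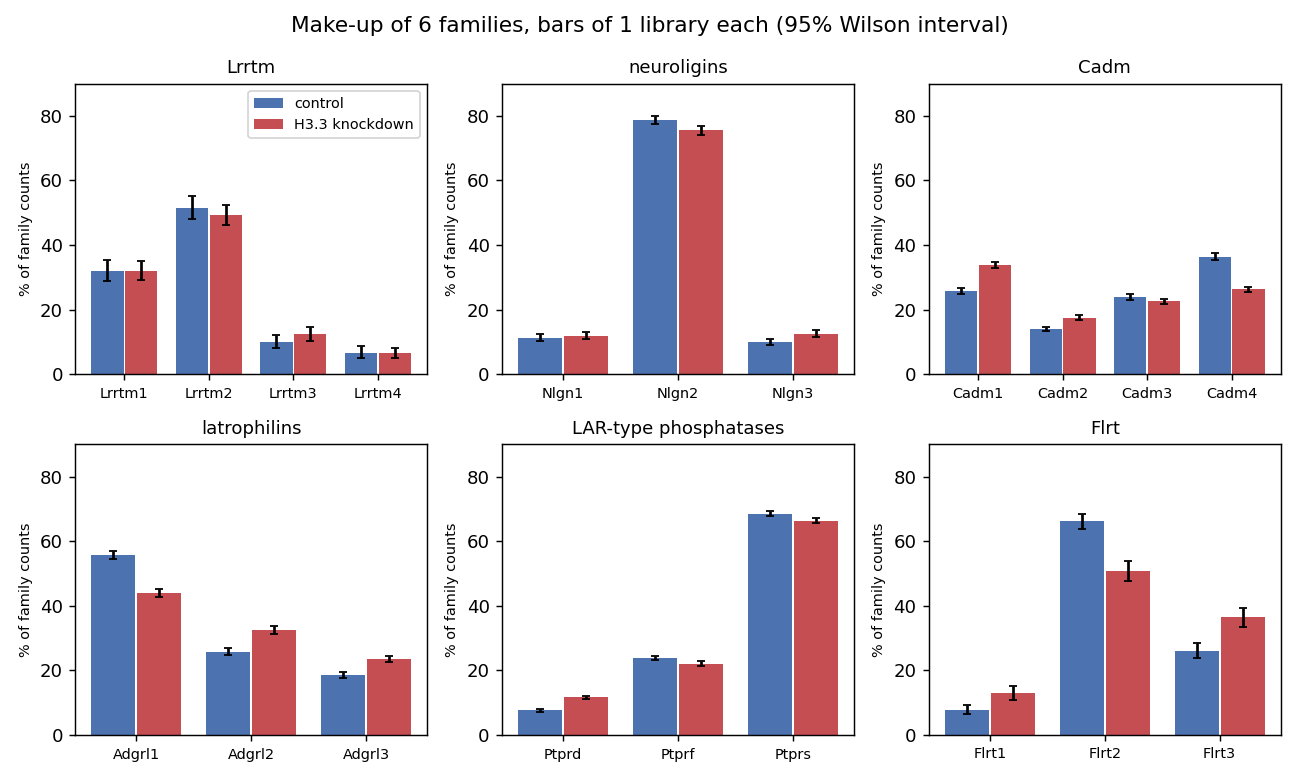
Share of each gene in the counts of its family (percent) for 6 families, in the control (blue) and the H3.3 knockdown library (red), with 95% Wilson intervals as bars. Counts were not divided by exon length, so the shares compare the libraries and not the genes. The shares of Adgrl1, Cadm4 and Flrt2 are lower in the knockdown library, those of Ptprd, Cadm1 and Adgrl2 are higher, and the share of Lrrtm1 is nearly the same.

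The contactins, axonal adhesion proteins of the immunoglobulin class, all had intervals above 1. Cntn4, on chromosome 6 from 105677660 to 106699310 on the plus strand, had 75 control counts and 168 knockdown counts (8.17 and 19.3 CPM). It rose 2.36-fold (1.79 to 3.15), so that the lower end of the interval was under 2-fold. In the authors' deposited table its log2 fold change is 1.24, and no other of the 53 genes passes both of the study's limits there (adjusted p under 0.05, log2 change beyond 1 in size). In the authors' deposited table these limits are passed by 1081 of 18510 genes (5.84%). Cntn1, the most abundant contactin, had 1818 and 2540 counts (198 and 292 CPM). It was higher after knockdown, at 1.47 times the control (1.39 to 1.57). Cntn2, found on early axons, had 832 and 998 counts, 1.27 times the control (1.15 to 1.39). The others had few counts. Cntn3 went from 60 to 95, Cntn5 from 59 to 93 and Cntn6 from 89 to 119, with ratios of 1.67, 1.66 and 1.41. Over the family the levels summed to 319 and 461 CPM, a ratio of 1.44 (1.38 to 1.51).

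The promoter windows of the genes with the lowest and the highest ratio among the 45 are shown to give their sequence context. Both are the 250 bases before a transcription start on the plus strand, from RefSeq on GRCm38.p6. The Flrt2 window is chr12:95691976-95692225 and ends at the base before the start of the gene in the deposited table. The Cntn4 window is chr6:106118515-106118764, the first of 2 in the RefSeq table. It lies inside the gene span of the deposited table, and its transcription start is 441105 bases downstream of the start of that span. Capitals mark any match to 5 motifs that were searched on both strands (TATA box, CCAAT box, GC box, cyclic AMP response element and E-box).
Flrt2: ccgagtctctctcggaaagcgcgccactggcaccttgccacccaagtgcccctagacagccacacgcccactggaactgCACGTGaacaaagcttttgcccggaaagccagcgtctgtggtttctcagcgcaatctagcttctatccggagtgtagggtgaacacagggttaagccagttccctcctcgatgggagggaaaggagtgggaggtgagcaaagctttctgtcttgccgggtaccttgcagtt
Cntn4: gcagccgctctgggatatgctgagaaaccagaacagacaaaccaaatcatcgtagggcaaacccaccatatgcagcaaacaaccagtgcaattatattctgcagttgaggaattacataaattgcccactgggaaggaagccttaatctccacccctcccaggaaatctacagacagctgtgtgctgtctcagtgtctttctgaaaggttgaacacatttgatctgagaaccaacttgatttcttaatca
The only match in the Flrt2 window was the E-box CACGTG, which begins 171 bases before the start. That motif occurs in 6.02% of all 32851 windows of this length. The Cntn4 window shown held none of the 5. The TATA box, TATAAA, occurs in 12.4% of all windows. The CCAAT box, spelled as its name, occurs in 33.8%. The GC box, GGGCGG, occurs in 32.7% of them. The cyclic AMP response element, TGACGTCA, occurs in 1.55%. No motif overlapped another in the windows shown. The G and C content was 57.2% for the Flrt2 window and 44.4% for the Cntn4 window shown. The other Cntn4 window, not shown, had 50%. A match describes these letters and no binding was measured. Windows were found for 33 of the 45 genes, too few for a comparison of motifs over the families.

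The contactin-associated proteins had ratios above 1 in all 7 genes, and 4 of them lay above the control beyond counting error. Cntnap2, whose protein gathers potassium channels beside the node of Ranvier, had 901 control counts and 1145 knockdown counts. The knockdown level was the higher one, 1.34 times the control (1.23 to 1.47). Cntnap4 had 194 and 272 counts, 1.48 times (1.23 to 1.79), and Cntnap3 109 and 175 counts, 1.69 times (1.33 to 2.17). Cntnap5a had 172 and 202 counts with an interval of 1.01 to 1.53, and that of Cntnap5b (0.951 to 1.88) included 1. Cntnap1, the partner of Cntn1 at the paranodes of myelinated axons, had 19 counts in both libraries, and Cntnap5c had 21 in both. At these counts a ratio up to 2.11 and 2.03 lay within the intervals. Reads shared by the related Cntnap5 genes could have been counted for any of them or for none.

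The Cadm genes, which encode immunoglobulin proteins that join synapses and glial contacts, went in both directions. Cadm1, on chromosome 9 from 47530173 to 47857637 on the plus strand, had 2137 control counts and 3246 knockdown counts (233 and 373 CPM). The knockdown library was higher, 1.60 times the control (1.52 to 1.69). Cadm2 had 1153 and 1680 counts, 1.54 times (1.43 to 1.66), and Cadm3 1974 and 2164 counts, 1.16 times (1.09 to 1.23). Cadm4, a member known from myelinating glia, had 3006 and 2522 counts and was lower after knockdown, at 0.885 of the control (0.839 to 0.934). Of the counts of the 4 genes, Cadm4 made up 36.3% in the control (35.3% to 37.4%) and 26.2% in the knockdown library (25.4% to 27.1%). Cadm1 took the largest share of counts after knockdown, 33.8% (32.8% to 34.7%), compared with 25.8% in the control. Per length of exon, Cadm4 kept the largest share in both libraries (70.1% and 59.9%), beside 10.3% and 16.0% for Cadm1. Oligodendrocyte lineage markers, which are glial, had a median log2 ratio of -1.33, with 3 of 12 above and 8 below the control beyond counting error (2238 and 2026 CPM summed). The 8 astrocyte markers had a median of 0.06, with 4 above and 3 below the control beyond counting error (1463 and 1556 CPM summed). Their part in the value of Cadm4 was not tested.

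The 8 genes that match only the start of the Lrrc4 symbol encode unrelated proteins with leucine-rich repeats. Their levels summed to 330 and 329 CPM. Of the 7 tested, Lrrc49 lay above the control (760 and 870 counts, 1.21 times) and Lrrc45 below it (353 and 254 counts, 0.759 times). The other 5 intervals included 1, and the median log2 ratio was -0.10.

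The adhesion genes are long, and longer ones tended to have higher ratios. Their median span was 162 kb, beside 23.8 kb over all tested genes, and 19 of 45 (42.2%) reached 200 kb compared with 6.33% of tested genes. All 19 had log2 ratios above 0, with a median of 0.54, and the counting interval lay above 1 for 15 of them and below 1 for none. Among the 26 shorter genes 18 had log2 ratios above 0, and the median was 0.21. The 867 tested genes of at least 200 kb other than the members also had a raised median, 0.23, with 67.9% above 0 and 76 higher and 16 lower by the 2-fold rule. The counting interval of these 867 genes lay above 1 for 415 and below 1 for 149. Among all genes under 200 kb the median was -0.04. Spearman's rho between the log2 ratio and the span was 0.51 over the 45 genes and 0.12 over all 13989, as a description of genes that share the same 2 libraries. Within the longest class (at least 500 kb) the 14 adhesion genes had a median of 0.43 and the 181 other genes 0.33. Exceptions stood on both sides. Slitrk1 is listed with a span of 4.25 kb and had a log2 ratio of 0.48, while Nlgn1 spans 906 kb and had 0.14.

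**Figure D4:**
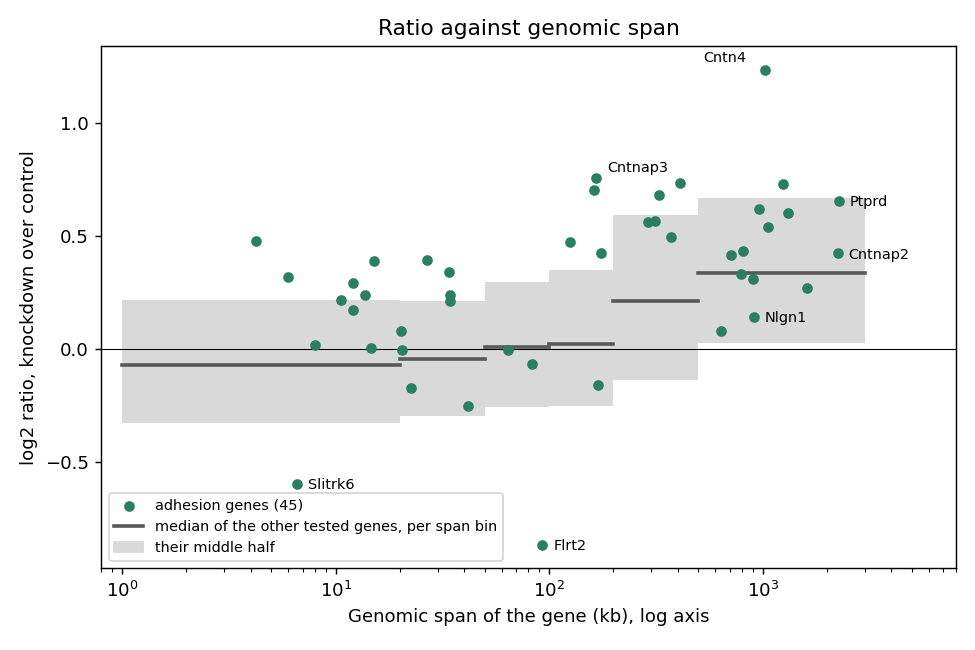
Log2 ratio (knockdown over control) against the genomic span of the gene in kb (log axis) for the 45 adhesion genes (points), with the median (line) and the middle 50% (grey) of the other tested genes in each span class, the first class drawn from 1 kb and the last one open-ended. All adhesion genes of at least 200 kb lie above 0, and the medians of the other genes are higher in the classes of long genes as well.

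Partners of these proteins were described by lists. As background for this and the following lists, 3.82% of all tested genes rose and 2.54% fell by the 2-fold rule. Intervals lay above 1 for 22.9% of them and below 1 for 27.0%. Of 20 ligands and partners of neurexins and LAR-type phosphatases, 13 lay above and 1 below the control beyond counting error, with a median log2 ratio of 0.33. By the 2-fold rule 2 rose and none fell, which became 1 with 5 counts added and 0 with a minimum of 10 CPM. Nxph4, a secreted neurexophilin, rose from 40 to 96 counts (2.53-fold, 1.73 to 3.76), and Il1rapl2, of the family that binds LAR-type phosphatases, from 14 to 29 counts (2.19-fold, 1.12 to 4.48). Among 26 other adhesion genes of neurons the median was 0.38 with 18 above, 3 below and none past the 2-fold rule. Its members with most counts were Ncam1 (494 and 602 CPM, ratio 1.22) and Chl1, an adhesion protein of the L1 class (348 and 606 CPM, ratio 1.74, 1.67 to 1.82).

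Intracellular scaffolds that hold the adhesion proteins in place had a median of 0.32, with 22 of 36 above and 5 below the control beyond counting error. By the 2-fold rule 3 rose and none fell, against 3.82% and 2.54% of all tested genes. Dlg2, a postsynaptic scaffold of the PSD-95 class, rose from 523 to 1027 counts (2.07-fold, 1.86 to 2.31). Lin7a, which forms a complex with Cask, rose from 200 to 434 counts (2.29-fold, 1.93 to 2.72). Ppfia2, a liprin that binds LAR-type phosphatases, rose from 609 to 1179 counts (2.04-fold, 1.85 to 2.26).

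Proteases that can shed these proteins and RNA-binding proteins that act on neuronal splicing had a median of 0.12 over 14 tested genes, with 6 above and 3 below. Among all tested genes 22.9% lay above and 27.0% below, and 3.82% rose and 2.54% fell by the 2-fold rule. Ptbp1, a splicing repressor of progenitor cells, fell from 2166 to 893 counts (236 and 103 CPM), 0.435 of the control (0.402 to 0.471). Partners of contactins and Cntnap proteins at the node of Ranvier went both ways, with a median of 0.55 and 5 of 17 higher and 3 lower by the 2-fold rule (3 higher with a minimum of 10 CPM, and a median of 0.36 with no minimum level). Lgi1, a secreted ligand of Adam22, rose from 112 to 277 counts (2.61-fold, 2.09 to 3.28), while the myelin genes Mbp (520 to 217 counts) and Mag (27 to 3 counts) fell to 0.440 and 0.117 of the control.

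**Figure D5:**
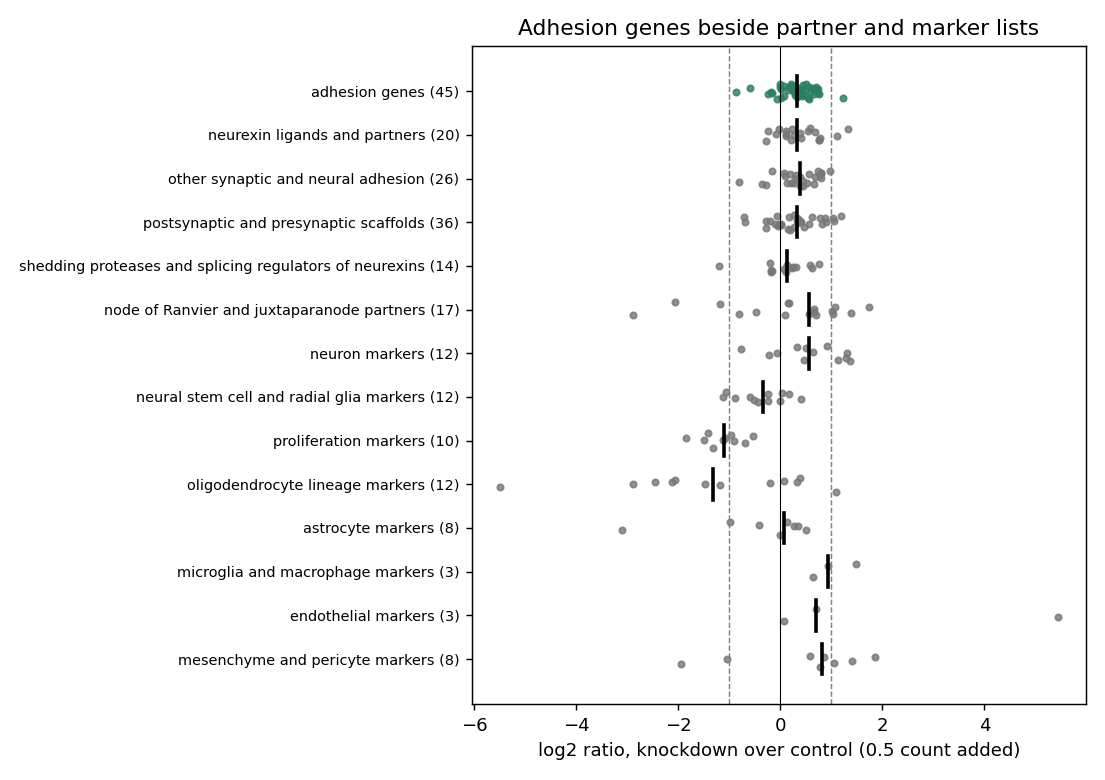
Log2 ratio (knockdown over control, 0.5 count added) of every tested gene of the 45 adhesion genes (green) and of the partner and marker lists (grey), with the number tested in brackets, a bar at each median and dashed lines at a 2-fold ratio either way. The adhesion genes, their ligands, other adhesion genes and scaffolds have medians between 0.32 and 0.38, the neuron markers 0.57 and the proliferation markers -1.11.

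Markers of microglia, macrophages and endothelial cells were scarce in both libraries. The 8 microglia and macrophage genes summed to 35 and 56 counts, and the 5 endothelial genes listed to 71 and 120 counts, of which Flt1 had 0 and 20. The 11 mesenchyme and pericyte genes summed to 112 and 123 CPM, with 3 higher by the 2-fold rule (among them Col3a1, 31 and 108 counts, and Col1a2, 33 and 83 counts) and 2 lower (Pdgfrb, 209 and 51 counts, and Prrx1, 308 and 141 counts). With a minimum of 10 CPM none of the 3 higher calls was left. Their part in the adhesion values was not tested.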

How the data were processed

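Raw counts per gene of 2 libraries were deposited in 1 table, per the file headers. HTSeq 0.6.0, TopHat2 2.0.12 and Bowtie 1.0.1 appear in the submitters' processing notes. Settings, genome build and use of strand were not given in the sources used here. Without strand, reads of a gene and of an overlapping or antisense partner cannot be separated. Of the 45 adhesion genes, 16 share exon bases with another annotated gene. The authors' log2 fold change and adjusted p-value were deposited in the same table, from a test that the labels do not name. The fold change was used only where the text says so, and the adjusted p-value was not used. The 2 per-library columns of normalized values were not used, and 1 row is not analysed here. Results for some single genes are not reported here.

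Symbols were matched to 18423 of 18510 Ensembl IDs. Positions are those of the deposited table, and 44 of the 53 genes have the same start and end in GENCODE vM21 (GRCm38), from which exon lengths were taken. Counts were divided by column totals, and RPKM used the union of exons. Log2 ratios used 0.5 count added to each library. Ratio intervals are exact conditional (Clopper-Pearson) intervals, without added counts, and shares have Wilson intervals. As PCR reads are not independent molecules, they cover counting error only. With 3 counts as the limit, a count of 0 allows up to 0.327 CPM (control) and 0.345 CPM (knockdown). A lone library in each group allows no test, so a size rule was used (mean of at least 1 CPM, 2-fold, interval excluding 1). The 53 genes were eligible to be named, and of each list up to 4 genes past the rule or otherwise the 2 most abundant. Outside this rule, Nes, Sox2 and Tubb3 are named as a check of the labelled cells, genes that contain a member for their position, and the teneurin and Unc5 genes after their values were seen. Syt1 and Elavl3 are named because they lay below the control, unlike most neuron markers. The genes and lists were chosen with earlier results of these data known, and some lists share genes. Alternatives were TMM factors (edgeR 4.0.16), DESeq2 1.42.0 size factors, other minimum levels, other added counts and a 1.5-fold size. Python 3.11.15 and scipy 1.17.1 were used.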

Additional observations from a re-analysis of the deposited data

How the results depend on the processing

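No paired analysis was possible because each group held 1 library. With a 1.5-fold size in place of 2-fold, the count of higher members went from 1 to 9 and that of lower members from 0 to 2. Under TMM or DESeq2 scaling, other added counts, other minimum levels, or without the Lrrc40 to Lrrc49 genes, the counts of higher and lower members were 1 and 0, and the median log2 ratio lay between 0.28 and 0.33. Under 2 alternatives chosen after seeing the data it was 0.26 (without members whose exons overlap another gene) and 0.27 (mean in place of median). Families with a median above 0 numbered 9 of 11, and 11 with TMM scaling. The medians of the Flrt genes and the LAR-type phosphatases lay close to 0 with column totals (-0.004 and -0.006). Counting intervals lay above 1 for 28 members and below 1 for 5, and for 26 and 7 with DESeq2 scaling. Among the lists, the mesenchyme and pericyte median turned from 0.81 to -0.23 and its higher calls from 3 to 0 with a minimum of 10 CPM. The mean levels of all 3 genes called higher lay under that minimum. With that minimum no microglia or endothelial gene was left to give a median. The 10 highest levels per length in the control were the same genes with the longest transcript as the length, led then by Ptprs. A single library per group leaves the spread between cultures unmeasured, and genes with under 100 counts, such as Cntn4 in the control, have wide intervals.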

Other observations

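Sets that the deposited table annotates to synapses, neurites and cell contacts were looked at after the values of the adhesion genes were seen, with those genes left out. The synaptic sets did not share one level. Genes of the presynaptic membrane had a median log2 ratio of 0.40 over 46 tested genes, with 3 higher and 1 lower by the 2-fold rule. Those of the postsynaptic membrane had 0.34 over 161 genes, with 14 higher and 1 lower, and those of the postsynaptic density 0.30 over 119 genes, with 10 higher and 2 lower. Synapse assembly had 0.31 over 14 genes, with none past the rule, and synapse organization 0.06 over 12 genes, with 1 higher and none lower. Genes annotated to the axon had 0.14 over 193 genes, with 18 higher and 3 lower, and those of the dendrite 0.17 over 247 genes, with 21 higher and 1 lower.

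Sets of cell contacts varied as well. Homophilic cell adhesion, a set that holds many cadherins and protocadherins, had a median of 0.24 over 113 genes, with 6 higher and none lower. Heterophilic adhesion between cells had 0.18 over 21 genes, with 3 higher and none lower. Integrin signalling had 0.11 over 28 genes, with 6 higher and 1 lower, and the broad set of cell adhesion 0.07 over 173 genes, with 22 higher and 4 lower. Desmosome genes had 0.05 over 12 genes, with 2 higher and 1 lower. Genes annotated to focal adhesion, where integrins meet the actin cytoskeleton, had -0.12 over 310 genes, with 15 higher and 7 lower. Among all tested genes the 2-fold rule was met by 3.82% in the higher and 2.54% in the lower direction.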
